A study of Mus musculus with 12 samples.

Results

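The genes described here are 30 genes of sterol and fatty acid synthesis in mouse skin, chosen by name as the known enzymes and regulators of these pathways. All 30 were found among the 24532 genes of the data, and all 30 passed the filter on low counts that left 16466 genes for testing. They hold 7 genes of the mevalonate arm, 3 genes of squalene and lanosterol synthesis, 8 genes of the steps from lanosterol to cholesterol, 6 genes of sterol regulation and transport, and 6 genes of fatty acid synthesis and its supply. RNA of ear skin was sequenced in bulk in 12 libraries, 3 in each of 4 groups. Mice were kept specific-pathogen free (SPF), with a normal microbiota, or germ free (GF), with none. The skin of each housing received either ethanol, the vehicle, or MC903 in ethanol, so that all 4 groups share the vehicle. MC903, or calcipotriol, is an analogue of vitamin D. Applied to the skin of mice it causes an inflammation like that of atopic dermatitis, and the series asks how the microbiota changes the transcriptome of such skin. The labels give 5 applications without making clear whether they were made once a day. Neither age nor sex is given in the sources used here. The strain reads C57BL/6 for 9 libraries, while its last digit is 7 for GF MC903 4, 8 for GF ethanol 5 and 9 for GF MC903 5. SPF libraries are numbered 1, 2 and 3, and GF libraries 1, 4 and 5. Since the labels do not say that replicates are separate animals, a p-value here measures only how far these libraries spread.

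Cholesterol is built from acetyl-CoA through mevalonate, isoprenoid phosphates, squalene and lanosterol, and fatty acids are built from the same acetyl-CoA through malonyl-CoA. Both pathways are controlled at transcription by the sterol regulatory element binding proteins, SREBPs, membrane proteins of the endoplasmic reticulum. When sterols are scarce, SCAP escorts the SREBPs to the Golgi, where proteases release the active factor, and when sterols are plentiful, INSIG proteins hold the complex back. In skin, keratinocytes use both pathways to fill the lipid layers of the stratum corneum, and sebaceous glands use them to make sebum.

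The promoters of 25 of the 30 genes were found in a RefSeq table of the GRCm38.p6 build, as 34 stretches of 300 bases (250 before and 50 after the start). None was found for Fdps, Fdft1, Sqle, Stard4 or Scd2, whose responses to MC903 were each lower in GF than in SPF skin. The promoters of Idi1, Lss, Nsdhl and Srebf2 are printed as examples of other genes with a lower response in GF skin. Those of Dhcr7, Sc5d, Acly and Acss2, which also had one, were found but are not printed. The promoter of Hmgcs1 is printed because this enzyme fell with MC903 in both housings. Capitals mark the core of a sterol regulatory element, searched as TCACNCCAC, and the CCAAT box, which reads ATTGG where it lies on the other strand. Each sequence runs 5′ to 3′ on the strand of the gene.
Hmgcs1, chr13:119690101-119690400, plus strand: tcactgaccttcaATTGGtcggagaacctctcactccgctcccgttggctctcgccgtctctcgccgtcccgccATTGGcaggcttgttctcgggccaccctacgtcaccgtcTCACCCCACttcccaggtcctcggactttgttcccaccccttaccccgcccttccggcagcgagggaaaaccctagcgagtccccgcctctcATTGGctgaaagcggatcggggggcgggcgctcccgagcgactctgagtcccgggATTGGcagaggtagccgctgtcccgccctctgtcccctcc
Idi1, chr13:8885356-8885655, plus strand: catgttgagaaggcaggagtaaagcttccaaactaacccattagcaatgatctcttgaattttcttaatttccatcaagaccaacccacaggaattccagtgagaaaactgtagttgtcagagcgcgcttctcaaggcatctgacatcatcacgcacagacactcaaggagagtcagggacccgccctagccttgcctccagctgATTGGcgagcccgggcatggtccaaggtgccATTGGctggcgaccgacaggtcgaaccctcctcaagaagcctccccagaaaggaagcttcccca
Lss, chr10:76531355-76531654, plus strand: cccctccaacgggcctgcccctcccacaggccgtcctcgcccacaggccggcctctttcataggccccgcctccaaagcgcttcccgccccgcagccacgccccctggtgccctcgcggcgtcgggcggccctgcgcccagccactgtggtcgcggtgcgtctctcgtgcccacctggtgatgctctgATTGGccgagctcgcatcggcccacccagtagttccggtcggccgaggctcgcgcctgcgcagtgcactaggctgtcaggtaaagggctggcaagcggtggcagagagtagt
Nsdhl, chrX:72918271-72918570, plus strand: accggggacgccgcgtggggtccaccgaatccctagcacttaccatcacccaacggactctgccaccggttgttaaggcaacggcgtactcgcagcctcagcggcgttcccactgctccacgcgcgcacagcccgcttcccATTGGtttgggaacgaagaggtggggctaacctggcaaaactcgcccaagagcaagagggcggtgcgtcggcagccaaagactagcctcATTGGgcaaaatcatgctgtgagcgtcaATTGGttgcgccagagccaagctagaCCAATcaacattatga
Srebf2, chr15:82147019-82147318, plus strand: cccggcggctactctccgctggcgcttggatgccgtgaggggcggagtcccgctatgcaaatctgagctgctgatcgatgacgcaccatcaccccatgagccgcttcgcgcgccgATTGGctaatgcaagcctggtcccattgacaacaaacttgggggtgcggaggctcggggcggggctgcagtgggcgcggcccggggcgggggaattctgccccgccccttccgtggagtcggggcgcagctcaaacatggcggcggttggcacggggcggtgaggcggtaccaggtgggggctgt

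The sterol regulatory element core stood in 1 of the 25 genes, Hmgcs1, with its first base at -137 from the start. It stood in some promoter, on either strand, of 1.44% of the 27025 genes with a promoter. The CCAAT box stood in 22 of the 25 genes (88.0%), against 41.1% of all genes. Hmgcs1 held 4 copies, Nsdhl 4, Idi1 2, and Lss and Srebf2 1 each. The GC box, searched as GGGCGG on both strands, also stood in 22 of the 25 genes (88.0%), against 38.2% of all genes, and is not capitalised. Counted over promoters, 23 of 34 (67.6%) held a CCAAT box and 26 of 34 (76.5%) a GC box, against 37.4% and 35.7% of all 32851 promoters. No motif of the 3 is contained in another. A match describes the letters of this window and nothing about the binding of a factor.

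Library totals lay between 36358294 and 48225425 estimated counts. Levels are given as CPM, counts on library sizes scaled to a common size by TMM, the trimmed mean of M values, and changes as log2 ratios from 1 edgeR quasi-likelihood fit of all 12 libraries. An adjusted p under 0.05 over all 16466 genes counts as a change. MC903 moved the composition of the libraries, with TMM factors of 1.16 to 1.25 under ethanol and 0.806 to 0.836 under MC903. On library totals without TMM, the median log2 change of all genes shifted by -0.58 in the SPF response and -0.51 in the GF response, but by only 0.06 in the difference between the responses and 0.01 between the MC903 groups. Both responses to MC903 are therefore read relative to the scaling, and a log2 change whose sign turns on library totals is given on both. Changes also moved when each library's trend with gene length was removed, with 24 of the 30 genes then rising and 2 falling in SPF skin and 20 rising and 3 falling in GF skin.

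Relative to the TMM scaling, MC903 raised most sterol synthesis genes in SPF skin. Of the 30 genes, 22 rose and 4 fell, where 35.0% of all genes tested rose and 38.8% fell. Their median log2 change was 0.62, against -0.10 over all genes tested. On library totals 13 of the 30 rose and 10 fell. In GF skin fewer passed the test: 14 rose and 5 fell, where 33.4% of all genes tested rose and 35.1% fell. The median log2 change there was 0.25, against -0.07 over all genes, and on library totals 8 rose and 15 fell. The SPF and GF responses share no library. Between them 14 genes rose in both, 4 fell in both, and none rose in one and fell in the other. The same count over all genes tested was not made, so this agreement is not read as particular to the 30. Of the 18 cholesterol enzymes among the 30, 16 rose and 1 fell in SPF skin, and 12 rose and 1 fell in GF skin. On library totals the counts were 11 and 3, and 8 and 6.

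**Figure D1:**
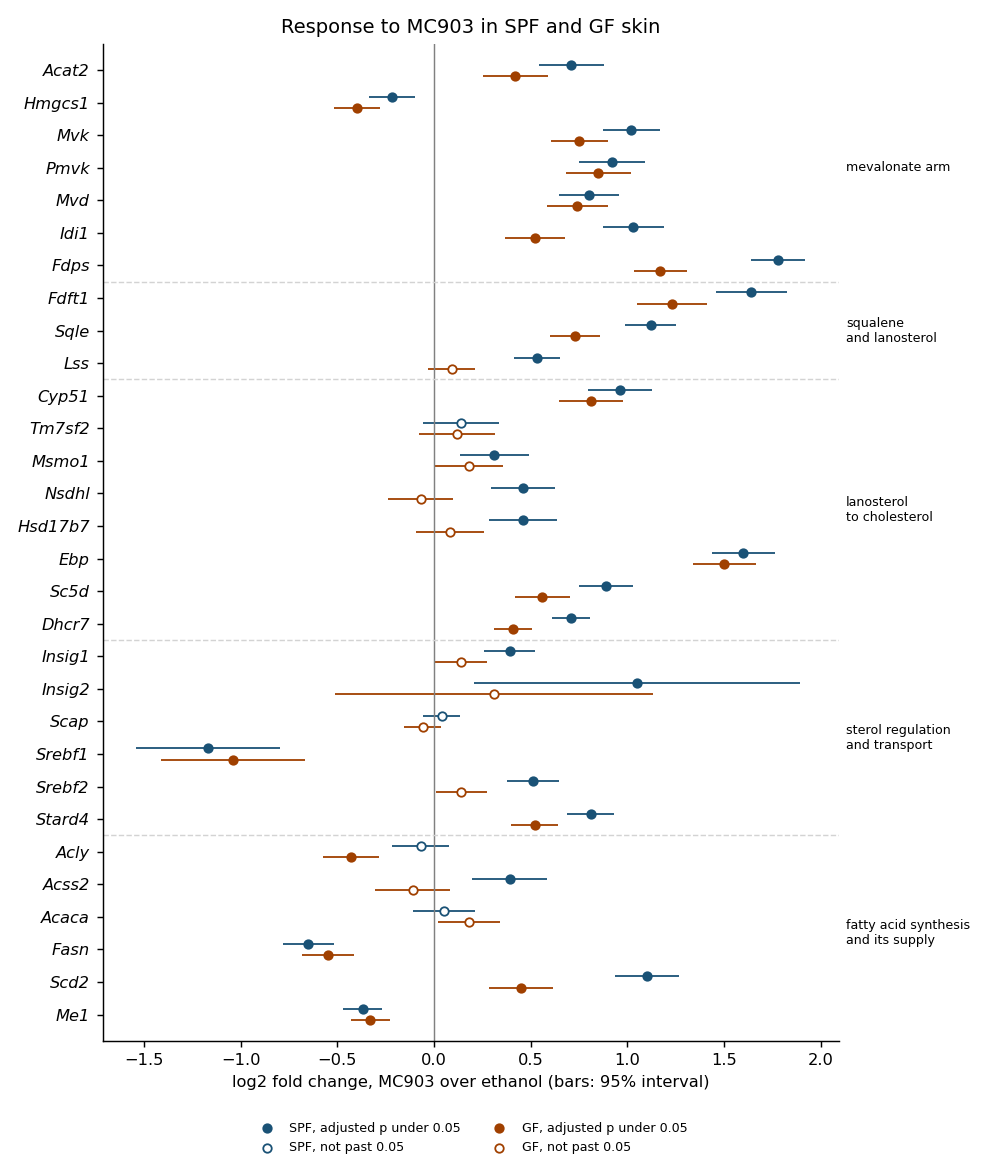
Log2 fold change of MC903 over ethanol for each of the 30 genes in SPF (blue) and GF (orange) skin, with bars of the 95% interval and filled points for an adjusted p under 0.05. For the 18 cholesterol enzymes, down to Dhcr7, the GF point lies left of the SPF point, as far apart as 1.78 and 1.17 for Fdps; on library totals all points move left, and 7 SPF increases turn negative.

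The difference between the responses was tested in the same fit. It was below 0, a lower response in GF than in SPF skin, for 26 of the 30 genes, and it passed the test for 13, all lower. Over all genes tested, 7.75% had a higher response in GF skin and 9.26% a lower one. The median was -0.29 for the 30 genes and 0.02 for all genes tested. Each of the 18 cholesterol enzymes among the 30 lay below 0, and 8 of them passed. Of 11 related genes that use mevalonate products, belong to the pathway or border it, described below, 1 passed as higher and 0 as lower. This was Lbr, at 0.32 (SE 0.094, adjusted p = 0.036). Lbr is a sterol reductase like Tm7sf2 but is not among the 30, so the 18 are not every enzyme of the pathway. In all, 8 of the 13 calls held under each of 19 alternative settings: Idi1, Fdps, Sqle, Lss, Nsdhl, Dhcr7, Srebf2 and Scd2. Those of Fdft1, Sc5d, Stard4, Acly and Acss2 were lost under 7 to 14 of them. The count of 13 became 8 on library totals, and also without SPF MC903 2, without GF ethanol 1, and without either of GF MC903 1 and GF MC903 4.

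The mevalonate arm carries acetyl units to farnesyl pyrophosphate, and 6 of its 7 genes rose with MC903 in both housings while Hmgcs1 fell, with 5 and 4 rising on library totals. Fdps (chr3:89093588-89101967), farnesyl pyrophosphate synthase, had 185, 177 and 169 CPM in the SPF ethanol libraries and 572, 667 and 590 CPM in the SPF MC903 libraries. In GF skin it had 191, 193 and 180 CPM with ethanol and 403, 420 and 446 CPM with MC903. The groups with MC903 lay wholly above those with ethanol, and GF MC903 wholly below SPF MC903. Its increase, 3.44-fold in SPF skin (log2 1.78, SE 0.071, adjusted p = 6e-10), was the largest of the 30 genes there. In GF skin it rose 2.25-fold (log2 1.17, SE 0.070), so that the response was smaller by a log2 difference of -0.61 (SE 0.097, adjusted p = 0.0015).

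Idi1 (chr13:8885606-8892396), isopentenyl-diphosphate isomerase, had 105, 102 and 114 CPM in SPF skin with ethanol and 191, 230 and 237 CPM with MC903. The GF values were 91.6, 88.3 and 86.9 CPM with ethanol and 125, 123 and 134 CPM with MC903. It rose by a log2 change of 1.03 in SPF skin and 0.52 in GF skin, the latter 0.01 (adjusted p = 0.93) on library totals. The difference of -0.51 (SE 0.11, adjusted p = 0.0086) passed the test. Mvk (chr5:114444264-114460591), mevalonate kinase, went from 70.1, 71.3 and 73.2 CPM to 140, 163 and 131 CPM in SPF skin and from 83.5, 89.6 and 84.4 CPM to 148, 140 and 146 CPM in GF skin. Its MC903 groups overlapped between the housings, while its GF ethanol group lay above its SPF ethanol group. The log2 changes were 1.02 (SE 0.075) and 0.75 (SE 0.075), and their difference of -0.26 did not pass (adjusted p = 0.11).

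The next enzymes after mevalonate kinase, Pmvk and Mvd, rose by log2 changes of 0.92 and 0.80 in SPF skin and of 0.85 and 0.74 in GF skin. Acat2, which joins acetyl-CoA units, rose by 0.71 and 0.42, the latter turning to -0.09 on library totals. Their differences between the responses, from -0.29 to -0.06, did not pass the test. Hmgcs1, which makes the HMG-CoA that enters the arm, went the other way: 577, 608 and 563 CPM with ethanol against 469, 505 and 531 CPM with MC903 in SPF skin. In GF skin it had 451, 436 and 465 CPM against 334, 355 and 337 CPM. The 4 groups did not overlap. The log2 change was -0.22 (SE 0.061, adjusted p = 0.0066) in SPF skin, which became 0.00 once each library's trend with gene length was removed, and -0.40 (SE 0.061, adjusted p = 8.9e-05) in GF skin.

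**Figure D2:**
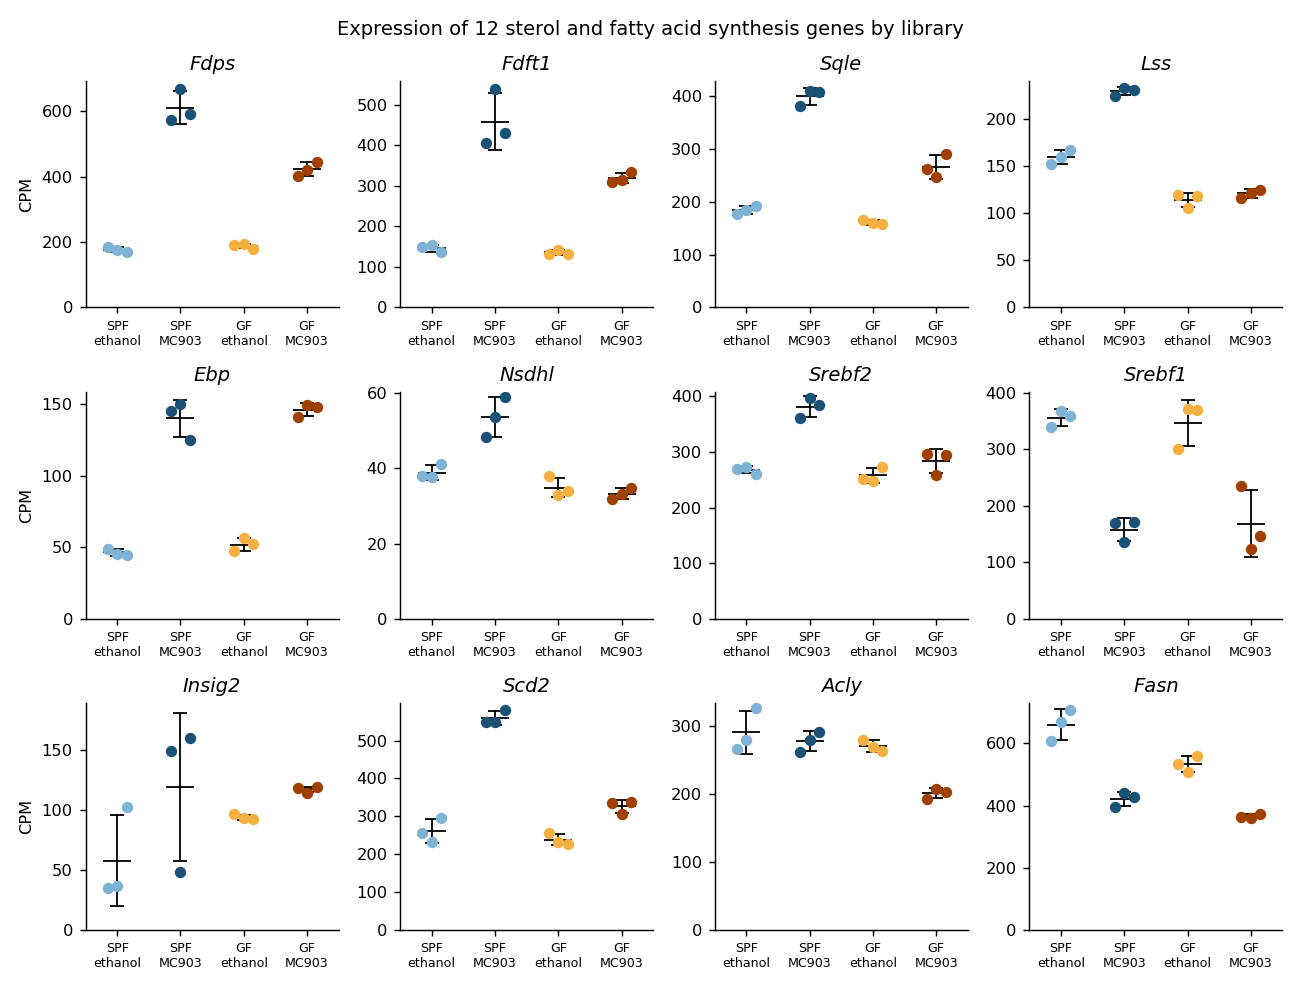
CPM of 12 of the genes in each library (points), by group, with the group mean and 1 SD (lines), each axis from 0. Fdps, Fdft1, Sqle, Lss, Nsdhl, Srebf2, Scd2 and Acly show GF MC903 libraries wholly below SPF MC903 libraries, Ebp shows MC903 groups that overlap, at 125 to 150 and 141 to 149 CPM, and Insig2 shows libraries of the SPF groups far apart.

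Squalene and lanosterol synthesis commits carbon to sterols, and its 3 genes were the role in which the difference between the responses passed for each gene. Fdft1 (chr14:63145150-63181687), squalene synthase, had 148, 153 and 138 CPM with ethanol and 405, 538 and 430 CPM with MC903 in SPF skin. The GF libraries had 132, 142 and 133 CPM and 309, 315 and 333 CPM. MC903 groups did not overlap, and the SPF group spread more widely than the GF group. The log2 change was 1.64 (SE 0.094) in SPF and 1.23 (SE 0.093) in GF skin, with a difference of -0.41 (SE 0.13, adjusted p = 0.049) that was lost under 14 of 19 alternatives, 11 of which left out 1 library, with adjusted p up to 0.10. Its model shares 774 bases with Ctsb, whose log2 changes were 0.65 and 0.61 with a difference of -0.03 (adjusted p = 0.86).

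Sqle (chr15:59315092-59331193), squalene epoxidase, a rate-limiting step of the pathway, had 176, 185 and 191 CPM with ethanol and 381, 409 and 407 CPM with MC903 in SPF skin. In GF skin its values were 165, 160 and 157 CPM with ethanol and 261, 246 and 290 CPM with MC903. No pair of the 4 groups overlapped. It rose 2.17-fold and 1.66-fold, with a log2 difference of -0.39 (SE 0.093, adjusted p = 0.014). Lss (chr10:76531565-76557139), lanosterol synthase, had 152, 160 and 167 CPM with ethanol and 225, 233 and 231 CPM with MC903 in SPF skin, but 119, 106 and 118 CPM and 116, 122 and 125 CPM in GF skin. The GF groups overlapped, and both lay below both SPF groups. Its log2 change was 0.53 (SE 0.061, adjusted p = 5.7e-06) in SPF skin, or -0.05 on library totals, and 0.09 (SE 0.061, adjusted p = 0.22) in GF skin. The GF value was -0.43 (adjusted p = 7.3e-05) when scaled on library totals, but 0.55 (adjusted p = 2.8e-06) without the length trend. The difference of -0.44 (SE 0.086, adjusted p = 0.0048) held under each alternative.

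From lanosterol to cholesterol, 7 of 8 genes rose in SPF skin and 4 in GF skin, or 4 and 2 on library totals, where 2 and 4 fell. Ebp (chrX:8185329-8193512), the sterol isomerase also known as emopamil binding protein, rose most, from 48.9, 45.3 and 44.4 CPM to 145, 150 and 125 CPM in SPF skin. In GF skin it went from 47.0, 56.3 and 51.8 CPM to 141, 149 and 148 CPM. The housings overlapped under both treatments. Its increases were 3.03-fold and 2.82-fold, and the log2 difference was -0.10 with a 95% interval from -0.33 to 0.12. Cyp51, lanosterol demethylase, rose by 0.96 and 0.81 on the log2 scale, with a difference of -0.15 (adjusted p = 0.43).

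Nsdhl (chrX:72918521-72958528), which takes part in removing methyl groups from the sterol ring, had 37.9, 37.7 and 41.2 CPM with ethanol and 48.4, 53.7 and 58.9 CPM with MC903 in SPF skin. GF libraries had 37.9, 32.9 and 33.9 CPM with ethanol and 31.9, 33.3 and 34.7 CPM with MC903. The SPF MC903 group lay above the other groups, and the GF groups overlapped. Its log2 change was 0.46 (SE 0.085, adjusted p = 0.00032) in SPF skin, or -0.11 on library totals, and -0.07 (SE 0.085, adjusted p = 0.50) in GF skin. The difference was -0.53 (SE 0.12, adjusted p = 0.011). Hsd17b7, the ketoreductase of the same demethylation, had a log2 change of 0.46 in SPF skin (-0.12 on library totals) and 0.08 in GF skin, the latter -0.44 (adjusted p = 0.0012) when scaled on library totals, but 0.41 (adjusted p = 0.001) without the length trend, and its difference of -0.38 missed the threshold (adjusted p = 0.061). Msmo1, the methyl sterol oxidase that begins it, rose by 0.31 in SPF skin (-0.26 on library totals) and had 0.18 in GF skin (adjusted p = 0.088), or -0.33 (adjusted p = 0.003) on library totals.

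Sc5d (chr9:42251592-42264300), sterol C5-desaturase, had 48.0, 50 and 56.3 CPM with ethanol and 91.3, 101 and 92.6 CPM with MC903 in SPF skin. Its GF values were 47.6, 51.8 and 49.5 CPM with ethanol and 74.1, 71.7 and 74.3 CPM with MC903. Ethanol groups overlapped and MC903 groups did not. The log2 changes were 0.89 and 0.56, the latter 0.05 (adjusted p = 0.47) on library totals. They differed by -0.32 (SE 0.10, adjusted p = 0.047), a call lost under 13 of 19 alternatives, with adjusted p up to 0.11. Dhcr7 (chr7:143823167-143848410), which makes cholesterol from 7-dehydrocholesterol, the precursor that skin also turns into vitamin D, had 170, 184 and 183 CPM and then 285, 294 and 297 CPM in SPF skin. In GF skin it had 206, 204 and 199 CPM and then 273, 266 and 272 CPM. The GF libraries lay above the SPF libraries with ethanol and below them with MC903, where the log2 difference of -0.11 missed the threshold (adjusted p = 0.090). Its log2 change was 0.71 in SPF skin and 0.41 in GF skin, or -0.10 on library totals in the latter, and the difference was -0.29 (SE 0.070, adjusted p = 0.015). Tm7sf2, a sterol reductase, had log2 changes of 0.14 (adjusted p = 0.22) and 0.12 (adjusted p = 0.32), but passed as lower on library totals, at -0.43 (adjusted p = 0.0015) and -0.39 (adjusted p = 0.0031).

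Summed over the 18 cholesterol enzymes, the libraries held 2587 to 2735 CPM with ethanol and 4262 to 4918 CPM with MC903 in SPF skin, and 2366 to 2441 and 3386 to 3630 CPM in GF skin. None of these ranges overlap. The skin is a mixture of cells, and in bulk RNA fewer cells of a type and less RNA per cell cannot be told apart. Keratinocyte markers, present in every library, summed to 32468 to 34823 CPM with ethanol and 57775 to 69954 CPM with MC903 in SPF skin, and to 35741 to 40562 and 70601 to 73660 CPM in GF skin, with 7 of 15 higher and 6 lower in the SPF response and 6 higher and 4 lower in the GF response. Sebocyte markers summed to 9293 to 9967 and 2889 to 3551 CPM in SPF skin and to 7093 to 7703 and 3628 to 4249 CPM in GF skin, with 10 of 15 lower and 3 higher in SPF and 8 lower and 4 higher in GF. Proliferation markers rose in 14 of 14 cases in both housings, from 340 to 403 CPM to 1110 to 1305 CPM in SPF skin and from 359 to 454 CPM to 1283 to 1339 CPM in GF skin. With MC903, 5 of 15 keratinocyte markers were higher in GF than in SPF skin and 4 lower, and 9 of 15 sebocyte markers were higher and 3 lower. With MC903 the difference in either sum was lost when 1 gene was left out, chosen here after its values were seen. Without Krt10 the keratinocyte sum with MC903 was 49921 to 59218 CPM in SPF and 50952 to 51851 CPM in GF skin. Without Scd1 the sebocyte sum was 1640 to 2224 and 1983 to 2318 CPM, so that the housings overlapped in both sums. Leaving out some other single genes of these lists has the same effect, because the full sums were barely apart. The highest SPF and lowest GF sums with MC903 were 69954 and 70601 CPM for keratinocyte markers, and 3551 and 3628 CPM for sebocyte markers. Schwann cell markers, a cell type that also makes much cholesterol, fell in 12 of 14 cases in SPF and 14 of 14 in GF skin, to 447 to 512 and 490 to 532 CPM. Adipocyte markers summed to 583 to 668 and 381 to 627 CPM in SPF skin and to 717 to 849 and 526 to 595 CPM in GF skin, with 7 and 6 of 12 lower. No gene of these lists was at 0 in every library. The part of these cell types in the sterol genes was not tested.

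Among the regulators, Srebf2 rose in SPF skin under TMM scaling but not on library totals, and Srebf1 fell in both housings. Srebf2 (chr15:82147269-82205379) encodes the SREBP that mainly drives sterol synthesis. It had 270, 273 and 260 CPM with ethanol and 361, 398 and 385 CPM with MC903 in SPF skin, and 252, 248 and 273 CPM and 297, 258 and 294 CPM in GF skin. The GF groups overlapped each other and the SPF ethanol group, and SPF MC903 lay above them all. The log2 change was 0.51 (SE 0.068, adjusted p = 1.9e-05) in SPF skin, or -0.07 on library totals, and 0.14 (SE 0.067, adjusted p = 0.093) in GF skin. The GF value was -0.38 (adjusted p = 0.00024) when scaled on library totals, but 0.47 (adjusted p = 0.00011) without the length trend. The difference of -0.38 (SE 0.095) passed with an adjusted p of 0.019, and with up to 0.049 under the alternatives.

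Srebf1 (chr11:60199084-60224186) encodes the SREBP that mainly drives fatty acid synthesis. Its values were 339, 369 and 359 CPM with ethanol and 169, 135 and 171 CPM with MC903 in SPF skin, and 300, 371 and 370 CPM and 236, 123 and 146 CPM in GF skin. Both MC903 groups lay below both ethanol groups, and GF MC903 1 stood above the other two. The log2 change was -1.17 (SE 0.19, adjusted p = 0.00013) in SPF skin and -1.04 (SE 0.19, adjusted p = 0.00037) in GF skin. Their difference of 0.12 had a 95% interval from -0.40 to 0.65. Srebf1 shares 114 bases with Rai1, whose log2 changes were -1.12 and -0.95, and reads of the overlap could not be assigned to one of them.

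Insig1 (chr5:28071412-28078662), an SREBP target that feeds back on the SREBPs, had 74.6, 72.6 and 85.1 CPM with ethanol and 98.1, 98.4 and 107 CPM with MC903 in SPF skin, and 63.6, 63.9 and 62.3 CPM and 67.6, 68.8 and 72.0 CPM in GF skin. The groups did not overlap, with GF below SPF under both treatments. It rose by 0.39 (SE 0.068) in SPF skin, or fell by 0.19 on library totals, and had 0.14 (SE 0.068, adjusted p = 0.097) in GF skin, or -0.38 (adjusted p = 0.00048) when scaled on library totals, but 0.18 (adjusted p = 0.034) without the length trend. Insig2 (chr1:121304353-121332662), its less sterol-dependent relative, had 35.1, 36.1 and 102 CPM with ethanol and 149, 48.1 and 160 CPM with MC903 in SPF skin. SPF ethanol 3 and SPF MC903 2 each lay far from the other two of their groups, and these groups overlapped. In GF skin the values were even, 96.2, 93.1 and 92.3 CPM with ethanol and 118, 114 and 119 CPM with MC903. Its log2 change of 1.05 (SE 0.43, adjusted p = 0.043) in SPF skin was lost under 13 of 20 alternatives, 10 of which left out 1 library, with adjusted p up to 0.32, and that in GF skin was 0.31 (SE 0.42, adjusted p = 0.52), or -0.20 on library totals. This SE is shared with the SPF libraries. In a fit of the GF libraries alone, whose groups did not overlap, the log2 change was 0.32 with an adjusted p of 0.0006, the one alternative of 20 under which it passed.

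Scap (chr9:110333288-110384949), the escort of the SREBPs, had 199, 207 and 202 CPM and then 207, 204 and 214 CPM in SPF skin, and 183, 183 and 192 CPM and then 181, 171 and 182 CPM in GF skin. Its GF libraries lay below its SPF libraries throughout. Its log2 changes of 0.04 (95% interval -0.06 to 0.14) and -0.06 (95% interval -0.16 to 0.03) did not pass. They passed as lower on library totals, at -0.54 (adjusted p = 8.8e-07) and -0.58 (adjusted p = 7.2e-07), and as higher with the length trend removed, at 0.38 (adjusted p = 1.7e-05) and 0.23 (adjusted p = 0.0012). Stard4, a carrier of cholesterol between membranes, had 77.6, 68.9 and 71.6 CPM and then 125, 132 and 126 CPM in SPF skin. The GF values were 50, 50.5 and 54.1 CPM with ethanol and 76.2, 71.7 and 74.2 CPM with MC903, so that GF skin with MC903 reached the range of SPF skin with ethanol. It rose by 0.81 and 0.52, the latter 0.01 (adjusted p = 0.9) on library totals. The difference of -0.29 (SE 0.087, adjusted p = 0.040) was lost under 14 of 19 alternatives, with adjusted p up to 0.12.

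Of the 6 genes of fatty acid synthesis and its supply, 2 rose and 2 fell in SPF skin, and 1 rose and 3 fell in GF skin, or 1 and 4, and 0 and 5, on library totals. With the length trend removed, 4 rose and 1 fell in SPF skin and 2 rose and 1 fell in GF skin. How these genes differ from the sterol enzymes was not tested. Fasn, fatty acid synthase, had 607, 670 and 707 CPM with ethanol and 396, 439 and 427 CPM with MC903 in SPF skin, and 533, 508 and 559 CPM and 363, 360 and 373 CPM in GF skin. No groups overlapped. Its log2 changes were -0.65 (SE 0.068) and -0.55 (SE 0.068), but 0.08 and 0.01 once each library's trend with gene length was removed. Its implied transcript length of 10165 bases is the longest of the 30 genes. Me1, malic enzyme, a source of NADPH for this pathway, fell by 0.37 and 0.33. Acaca, acetyl-CoA carboxylase, which commits carbon to fatty acids, had log2 changes of 0.05 and 0.18 that did not pass. With an implied length of 9239 bases it rose by 0.75 (adjusted p = 2.1e-06) and 0.72 (adjusted p = 4.7e-06) once the length trend was removed, and had -0.53 (adjusted p = 8.3e-05) and -0.33 (adjusted p = 0.0031) on library totals.

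Scd2 (chr19:44293676-44306864), a stearoyl-CoA desaturase, was the fatty acid gene that rose in both housings, though its log2 change of 0.45 in GF skin became -0.06 on library totals. It had 256, 232 and 295 CPM with ethanol and 549, 549 and 581 CPM with MC903 in SPF skin, and 255, 233 and 227 CPM and 334, 307 and 337 CPM in GF skin. Ethanol groups overlapped and MC903 groups lay far apart. The SPF response was 1.10 (SE 0.084, adjusted p = 1.3e-07), and the difference of -0.65 (SE 0.12, adjusted p = 0.0031) was the largest of the 13 that passed.

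Acly (chr11:100476352-100528000), ATP citrate lyase, and Acss2 (chr2:155518043-155562743), acetyl-CoA synthetase, both supply cytosolic acetyl-CoA. Acly had 267, 280 and 327 CPM and then 262, 279 and 292 CPM in SPF skin, and 280, 269 and 263 CPM and then 193, 207 and 203 CPM in GF skin. Only GF MC903 stood apart, below the rest. Its log2 change was -0.07 (adjusted p = 0.42) in SPF skin and -0.43 (SE 0.075, adjusted p = 0.00026) in GF skin, or 0.30 (adjusted p = 0.0022) and -0.11 (adjusted p = 0.18) without the length trend, and the difference of -0.36 (SE 0.11, adjusted p = 0.036) was lost under 11 of 19 alternatives, with adjusted p up to 0.085. Acss2 had 41.7, 50.3 and 50.3 CPM and then 58.1, 63.3 and 64.8 CPM in SPF skin, and 49.2, 43.4 and 40.3 CPM and then 39.6, 38.7 and 44.6 CPM in GF skin. SPF MC903 lay above the other groups. It rose by 0.39 (SE 0.099) in SPF skin, but had -0.19 (adjusted p = 0.099) on library totals. In GF skin it had -0.11 (adjusted p = 0.33), or -0.62 (adjusted p = 9.8e-05) on library totals. Its difference of -0.50 (SE 0.14, adjusted p = 0.029) was lost under 7 alternatives, with adjusted p up to 0.070.

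**Figure D3:**
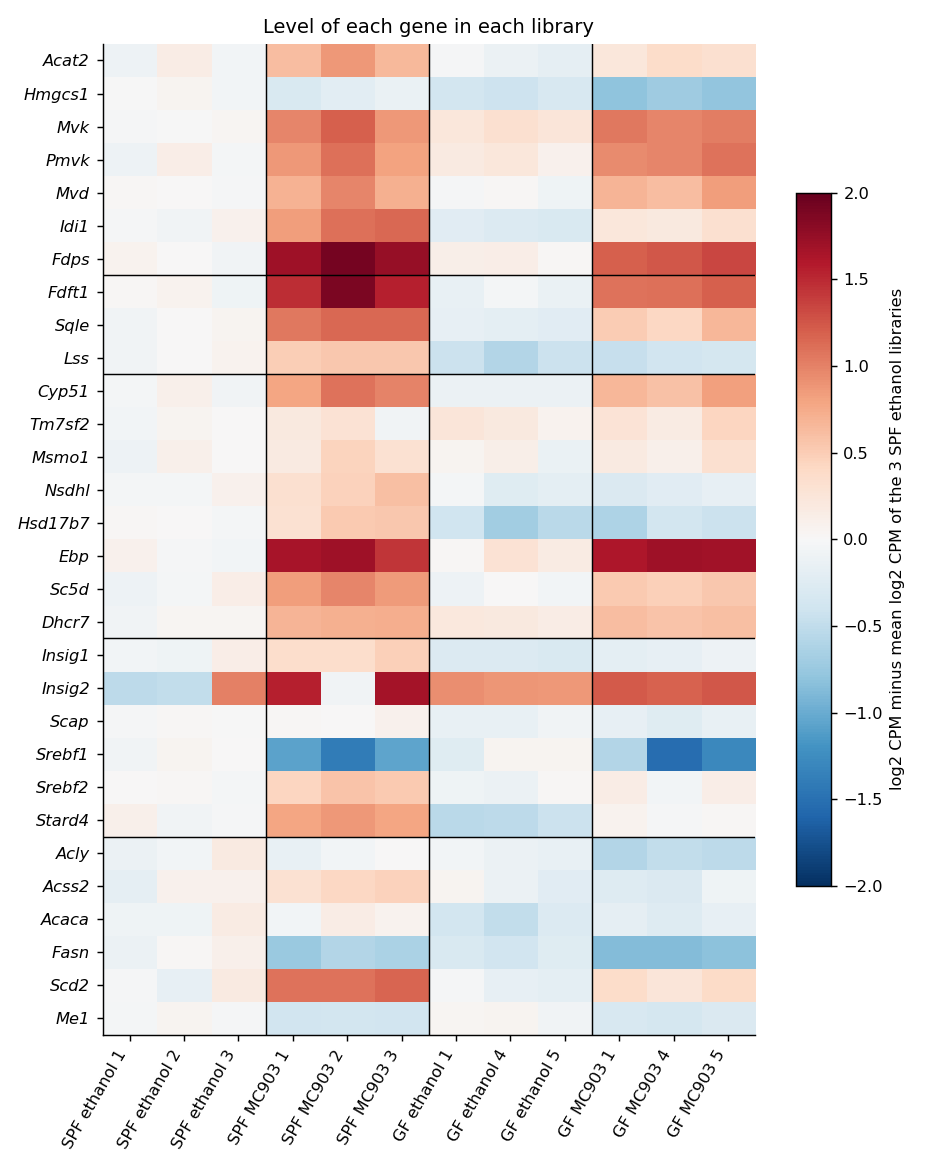
Level of each of the 30 genes (rows) in each of the 12 libraries (columns) as log2 CPM minus the mean log2 CPM of the 3 SPF ethanol libraries, from blue (lower) to red (higher). The SPF MC903 columns are redder than the GF MC903 columns for Fdps, Idi1, Sqle and Scd2, as in the CPM given for them, and Srebf1, Fasn and Me1 are blue in both.

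Housing was also compared under each treatment, in comparisons that share their libraries with the responses. With ethanol, GF skin was lower than SPF skin for 8 of the 30 genes and higher for 2, where 10.3% of all genes tested were lower and 11.6% higher. The 8 were Hmgcs1 (log2 -0.37), Idi1 (-0.27), Lss (-0.49), Hsd17b7 (-0.54), Insig1 (-0.29), Stard4 (-0.50), Acaca (-0.38) and Fasn (-0.31), and the 2 higher ones were Mvk (0.26) and Dhcr7 (0.18). Acaca and Fasn did not pass once the trend with gene length was removed. The call of Idi1 was lost without SPF ethanol 1, SPF ethanol 3 or any 1 of the GF ethanol libraries (adjusted p up to 0.11). Mvk was not called without any 1 of the SPF ethanol libraries, without GF ethanol 4, and with the length trend removed (adjusted p up to 0.15). Dhcr7 was not called without SPF ethanol 1, without GF ethanol 1 or 4, on library totals, and with only the groups compared (adjusted p up to 0.088). SE over the 30 genes was 0.049 to 0.19, apart from Insig2. With MC903, GF skin was lower for 20 of the 30 and higher for none, where 20.9% of all genes tested were lower and 20.8% higher. The median log2 difference was -0.39 for the 30 genes and 0.02 for all genes tested, and on library totals the count was again 20.

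Lss (log2 -0.93, SE 0.061, adjusted p = 9.2e-07) and Hsd17b7 (log2 -0.92, SE 0.091, adjusted p = 1.3e-05) were furthest below SPF skin with MC903, at 0.526 and 0.528 times the SPF level. Hsd17b7 had 152, 177 and 179 CPM in SPF and 80.5, 95.7 and 91.9 CPM in GF libraries there. Then came Idi1, Stard4 and Scd2, each at -0.78, and Nsdhl (-0.69), Acss2 (-0.60), Sqle (-0.58), Hmgcs1 (-0.55), Insig1 (-0.54), Fdps (-0.53) and Fdft1 (-0.52). Acly (-0.47), Srebf2 (-0.43), Acat2 (-0.40), Sc5d (-0.37), Cyp51 (-0.27), Acaca (-0.25), Scap (-0.23) and Fasn (-0.20) passed with smaller differences. Of these calls 17 held under each of 19 alternatives, and those of Cyp51, Acaca and Fasn did not, with adjusted p up to 0.089, 0.19 and 0.38. Cyp51 and Acaca did not pass when 1 of the libraries 2 and 3 of SPF MC903 or 1 and 4 of GF MC903 was left out, nor did Fasn, which was also lost without GF MC903 5. The libraries of GF skin lay wholly below those of SPF skin for 20 of the 30 genes, as they did for 25.2% of all genes tested. These 20 hold Dhcr7 in place of Cyp51. They lay wholly above for 1, Me1 (0.05, adjusted p = 0.42). The share of all genes tested that lay wholly above was not counted. Ebp, Mvk, Pmvk, Mvd and Tm7sf2, at log2 differences of 0.06, 0.00, 0.09, -0.09 and 0.14, overlapped between the housings. Each of these had a 95% interval reaching no lower than -0.25. Msmo1 (-0.12), Insig2 (-0.03) and Srebf1 (0.09) did not pass either.

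**Figure D4:**
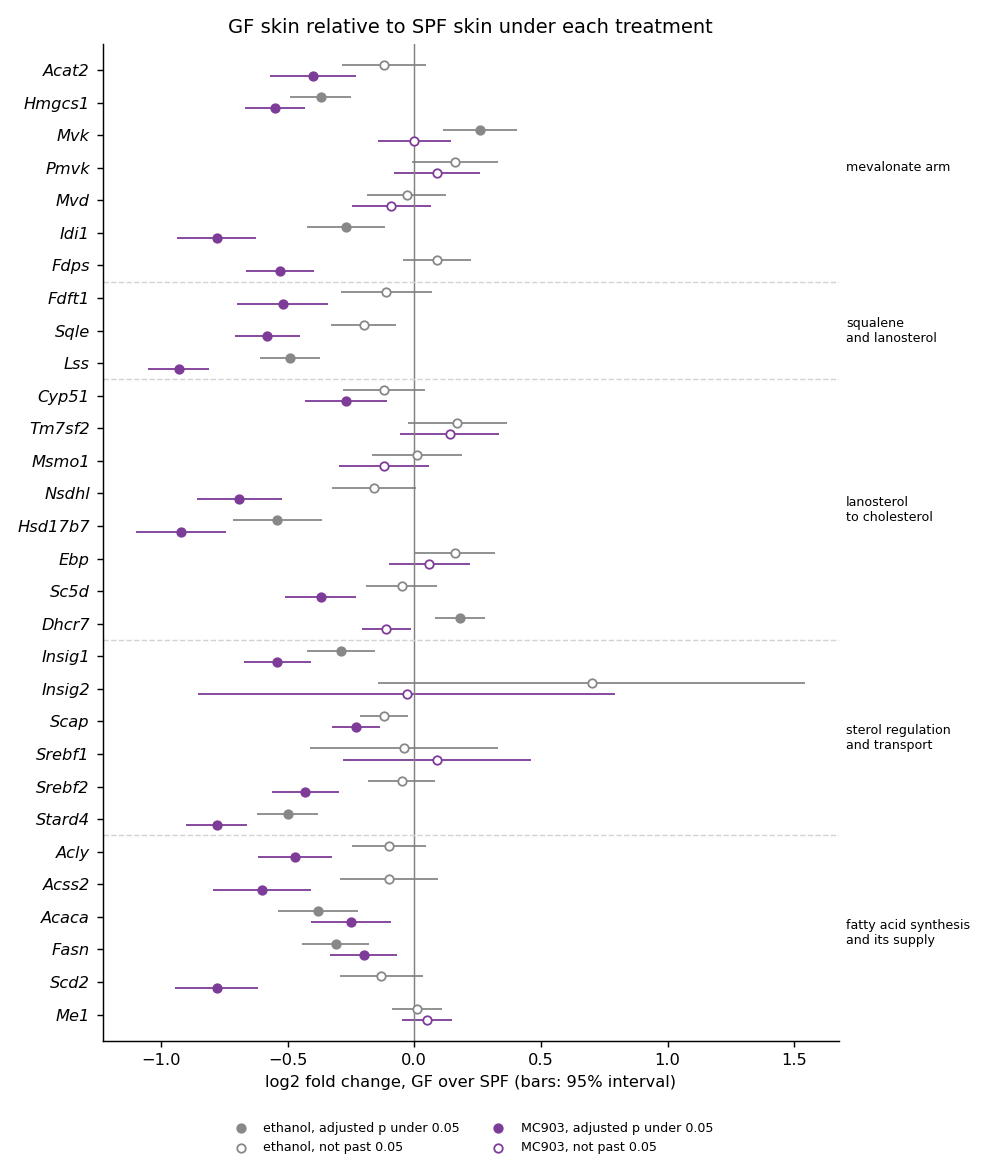
Log2 fold change of GF over SPF skin for each of the 30 genes with ethanol (grey) and with MC903 (purple), with bars of the 95% interval and filled points for an adjusted p under 0.05. With MC903, 20 points lie below 0 with an adjusted p under 0.05 and none above, and with ethanol 8 lie below and 2 above.

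To set the genes against each other, levels per transcript length were read from the deposited FPKM values (fragments scaled by transcript length and library size) within each group. Fdps had the highest mean with MC903 in both housings, at 387 FPKM in SPF and 270 FPKM in GF skin. With ethanol the highest were Hmgcs1 (198), Msmo1 (170) and Fdps (169) in SPF skin, and Fdps (172), Msmo1 (166) and Hmgcs1 (148) in GF skin. Msmo1 was second of the 30 in all 4 groups, and under ethanol it lay within 1 SD of Fdps in SPF skin (9.47 and 9.36 FPKM) and in GF skin (13.8 and 6.63 FPKM). Srebf1 went from rank 4 with ethanol to 24 with MC903 in SPF skin and from 4 to 20 in GF skin, and Ebp from 22 to 14 and from 21 to 11. Tm7sf2, Acaca and Stard4 held the lowest 3 FPKM ranks in both ethanol groups.

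Related pathways were described by counts, from lists drawn up by function. They stand beside 35.0% of all genes tested rising and 38.8% falling in SPF skin, and 33.4% and 35.1% in GF skin. On library totals the genes that rose in SPF skin numbered 0 of 11, 0 of 9, 5 of 18, 3 of 21 and 1 of 19 in the order in which the lists follow, and 8, 8, 13, 17 and 17 fell, beside 3127 rising and 10106 falling of all 16466 genes. In GF skin 0, 0, 3, 2 and 1 rose and 7, 9, 13, 14 and 16 fell, beside 2795 and 9697. The first list held 11 genes that use mevalonate products for dolichol, ubiquinone and protein prenylation, or that belong to the pathway or border it. Of these, 4 rose and 3 fell in SPF skin and 5 rose and 1 fell in GF skin. Nus1, a subunit of the dolichol-making prenyltransferase, rose by 0.55 and 0.51 (-0.03 and 0.00 on library totals), and Pggt1b, a subunit of a protein prenylating enzyme, had -0.61 in both. Of 9 genes that process or degrade components of the SREBP system, 1 rose and 5 fell in SPF skin and 1 rose and 8 fell in GF skin. Mbtps1, the site-1 protease that cuts SREBPs, had -0.86 and -0.69, and Erlin1, part of a sterol-sensitive degradation complex, rose by 0.53 and 0.29 (-0.05 and -0.22 on library totals). The difference between the responses passed for 3 of these 9, all lower in GF skin, where it passed as lower for 9.26% of all genes tested and as higher for 7.75%.

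Of 18 genes of cholesterol uptake, export, esterification and oxysterols, 5 rose and 8 fell in SPF skin, and 6 rose and 7 fell in GF skin. The difference between the responses passed as higher in GF skin for 4 of the 18 and as lower for 1. Over all genes tested 7.75% passed as higher and 9.26% as lower. Abca1, the exporter of cholesterol driven by the oxysterol receptor LXR, had a log2 change of -2.41 (SE 0.13) in SPF skin and -1.29 (SE 0.12) in GF skin. The difference of 1.13 (SE 0.17, adjusted p = 0.0011) passed. Mylip, another LXR target, had -2.18 and -1.42, and Cyp27a1, which makes 27-hydroxycholesterol, -2.31 and -1.36. With ethanol, 2 of the 18 genes were already lower in GF than in SPF skin and 1 was higher. The lower ones were Abca1, at -0.85 (adjusted p = 0.0013), and Mylip, at -0.48 (adjusted p = 0.02). Ch25h, which makes 25-hydroxycholesterol, rose by 2.71 and 1.68, and Cyp7b1, which breaks it down, by 1.85 and 1.88. Soat1, which esterifies cholesterol, rose by 1.57 in SPF and 0.44 in GF skin, the latter -0.07 on library totals, and its difference of -1.13 (SE 0.18, adjusted p = 0.0013) passed.

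Of 21 genes of fatty acid elongation, desaturation and activation, 4 rose and 11 fell in SPF skin, and 7 rose and 11 fell in GF skin. The difference between the responses passed as higher in GF skin for 5 of the 21, with Acacb at 1.7 and Scd1 at 0.81. It passed as lower for 2, with Acsl3 at -0.89. Over all genes tested 7.75% passed as higher and 9.26% as lower. Elovl7 rose by 1.24 and 1.26 and Elovl1 by 1.10 and 0.84, both elongases of long saturated chains. Acacb, the carboxylase that limits fatty acid oxidation, had -3.17 and -1.47, and Scd1, the desaturase of sebaceous glands, -2.21 and -1.40. Scd2 thus rose in SPF skin where Scd1 fell. Of 19 genes of fatty acid oxidation, 6 rose and 9 fell in SPF skin and 6 rose and 8 fell in GF skin. Their difference between the responses passed as higher in GF skin for 5 and as lower for 0. Ppara, a nuclear receptor that drives oxidation, had -3.02 (SE 0.094) and -1.61 (SE 0.087). With MC903, 14 of these 19 were higher in GF than in SPF skin and 2 lower, where 20.8% of all genes tested were higher and 20.9% lower. With ethanol 9 of the 19 were already higher in GF skin and 2 lower, beside 11.6% and 10.3% of all genes.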

How the data were processed

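RNA was prepared from skin with a fibrous tissue kit, and TruSeq libraries were read on a HiSeq4000 according to the labels' protocols. Tools named in the submitters' processing notes are StringTie 1.3.4d, HISAT2 2.1.0, Trimmomatic and bcl2fastq 2.20.0, and the build is mm10. How they were set, the annotation and whether strand was used are likewise not given in the sources used here. Reads of overlapping genes can therefore not be told apart. The authors deposited, per the file headers, an FPKM value beside an estimated count for each gene in each library. The estimated counts are whole numbers as deposited and were used unchanged. The deposited FPKM values served for the order of genes by level and, with the counts, for the length of each gene.

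Genes were filtered by group with filterByExpr of edgeR, at a minimum count of 10 and a minimum total of 15. One quasi-likelihood fit of 12 libraries (edgeR 4.0.16, R 4.3.3) with TMM scaling, a coefficient per group and Benjamini-Hochberg adjustment over 16466 genes at 0.05 gave every log2 change, SE and adjusted p of a gene. The common dispersion was 0.0218. Intervals are 95% normal intervals from the SE. CPM values use TMM-scaled library sizes. The fit was tested on simulated data in which 200 genes changed, as many up as down, in the SPF MC903 group alone. Those data held no shift in library composition and no trend with gene length, so they do not bear on either. Alternatives were size factors of DESeq2, library totals, no filter, the DESeq2 test (1.42.0), limma voom (3.58.1), only the groups compared, removal of each library's trend with gene length (lowess, span 0.3), a replicate block, and leaving out each library.

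The members and lists were chosen with earlier results of these data known. Each member's log2 changes are given, with values per library for those past the threshold with a log2 change of at least 1 in a response or past it in the difference, and for Insig1, Insig2, Scap, Srebf1 and Srebf2. CPM of Hmgcs1, Fasn and Hsd17b7 is given beyond that rule, after their values were seen. Of each list, at most the 3 genes with the largest change per direction and response were open to naming. Of the lists, 1 gene of the mevalonate branches was not matched and 1 sebocyte marker did not pass the filter. Every pair of replicates differed by more than sampling noise (chi-square per degree of freedom 17.9 to 47.2), so each library counted once. Coordinates and promoters are those of RefSeq for GRCm38.p6, the same build as mm10.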

Additional observations from a re-analysis of the deposited data

Results flagged for a closer look

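Whether the response to MC903 differed between GF and SPF skin was tested for each of the 30 genes, and 13 differed at an adjusted p under 0.05 of edgeR's quasi-likelihood test. In each the GF response was lower. The log2 difference (GF minus SPF) was -0.65 for Scd2, -0.61 for Fdps, -0.53 for Nsdhl, -0.51 for Idi1, -0.50 for Acss2, -0.44 for Lss, -0.41 for Fdft1, -0.39 for Sqle, -0.38 for Srebf2, -0.36 for Acly, -0.32 for Sc5d, -0.29 for Dhcr7 and -0.29 for Stard4. Over all 16466 genes tested the median was 0.02. The SE of these differences over the 30 genes ran from 0.07 to 0.27, apart from 0.60 for Insig2.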

How the results depend on the processing

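Scaling by library totals moved the responses most. In SPF skin 13 of the 30 genes then rose and 10 fell, against 3127 and 10106 of all genes, and in GF skin 8 rose and 15 fell, against 2795 and 9697. On that scaling the SPF log2 change became -0.05 for Lss, -0.26 for Msmo1, -0.11 for Nsdhl, -0.12 for Hsd17b7, -0.19 for Insig1, -0.07 for Srebf2 and -0.19 for Acss2, and the GF change -0.09 for Acat2, -0.10 for Dhcr7 and -0.06 for Scd2, since totals shift every gene of a response alike. With the trend of each library with gene length removed, 24 genes rose and 2 fell in SPF skin, and 20 rose and 3 fell in GF skin, where Lss, Srebf2 and Hsd17b7 then passed as higher. Hmgcs1 then had 0.00 and Fasn 0.08 in SPF skin, and Fasn 0.01 in GF skin. For the difference between the responses, 8 of the 30 were lower on library totals and 8 to 13 without 1 library, and none was higher under any alternative. Between ethanol groups, 1 of the 30 was higher on library totals, with only the groups compared, or with the length trend removed, and 0 to 2 without 1 library. Over all genes 1197 were higher and 944 lower there with the length trend removed, and 768 to 2121 higher and 707 to 1860 lower without 1 library. The cause was not tested. Between MC903 groups 17 to 20 were lower without 1 library, and 0 higher. The labels do not say whether same-numbered libraries come from the same mouse, and deviations from means of 3 libraries cannot decide it. Same-numbered deviations correlated at 0.00729, 0.0674 and 0.14 in SPF and 0.0221, -0.0225 and 0.000561 in GF skin. Not every library correlated best with its own number. With a replicate block, 22 rose and 4 fell in SPF skin, 15 rose and 5 fell in GF skin, and 11 had a lower response in GF skin. Comparisons between housings cannot be blocked. With 3 libraries a group, SE of the differences limit what can be told apart.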
